A study of Danio rerio with 7 samples.

Results

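A set of 7 genes that encode digestive elastases and carboxypeptidases of the pancreas was followed in zebrafish larvae: ela2, ela2l, ela3l, cpa1, cpa4, cpa5 and cpb1. They were taken by gene name and are 7 of the 32520 annotated genes in the deposited abundance tables, where each name matched 1 gene. The set was chosen by the measured fold changes of CACF against the normal diet, in which exocrine pancreas genes were already known to be lower, so the values of that contrast are given as a description. All larvae carried a transgene that overexpresses CD36, a membrane receptor for long-chain fatty acids, and RNA came from whole larvae at 15 days post fertilization. The promoter of the transgene, the meaning of the abbreviation CACF and the number of larvae behind a library are not given in the sources used here. Larvae were fed from day 5 on a normal diet (12%; 3 libraries, called fish 1, 2 and 4), on a high-fat diet (24%; 2 libraries, fish 2 and 4), or on the high-fat diet and then exposed overnight, after the last meal, to CACF at 40 µg/ml (2 libraries, fish 2 and 4). The normal diet is the control that the submitters name, and no group without the transgene was analysed here. The labels do not state whether the fish are from different clutches. The spread behind each p-value is therefore that of these libraries and may be technical.

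Acinar cells of the exocrine pancreas make digestive enzymes as inactive precursors, pack them in zymogen granules and release them into the gut after feeding. Trypsin then activates the others. Elastases are serine proteases that cut inside proteins. Carboxypeptidases are zinc enzymes that trim the cut peptides from their C-terminal end, with the A types removing aromatic and aliphatic residues and the B type removing lysine and arginine.

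The genes lie on 4 chromosomes of the GRCz11 build. ela2 (ENSDARG00000056744, chromosome 8, 21376290 to 21381734, plus strand) and ela2l (ENSDARG00000056765, chromosome 8, 21366771 to 21372485, minus strand) are neighbours that point away from each other, 3804 bases apart. ela3l (ENSDARG00000007276) lies on chromosome 5 at 26111596 to 26118855. cpa1 (ENSDARG00000030915, 18448186 to 18454016) and cpa5 (ENSDARG00000021339, 18459924 to 18470695) are neighbours on the minus strand of chromosome 25, with 5907 bases between them. cpa4 (ENSDARG00000043722) lies on the same chromosome at 16582172 to 16589461. cpb1 (ENSDARG00000045442) lies on chromosome 24 at 4755391 to 4765740. A reference table of gene names lists the cpa5 gene under the symbol CPA1, shared with cpa1. These are paralogs, so values may be uncertain where reads fit several copies, whose treatment no source used here states. ela2l is the only one of the 7 whose annotated span overlaps another gene, the heme synthesis gene alas2 on the opposite strand, which had 0.606 to 3.88 TPM. No source used here states whether counting was strand-aware, so reads of these overlapping genes may not have been told apart.

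The libraries held between 12699552 and 22543693 reads, as worked back from the deposited normalized counts. Genes of the mitochondrial genome took 7.74% to 17.8% of reads on the normal diet, 10.8% and 14% on the high-fat diet and 28.2% and 20.9% with CACF. Normal-diet fish 1 and CACF fish 2 were the least like the rest over all genes (median correlation 0.876 and 0.875), against 0.940 to 0.946 for the remaining 5. The part of either fact in the results below was not tested. In whole larvae, fewer acinar cells and less RNA per acinar cell cannot be told apart.

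Elastase transcripts were abundant in most libraries and nearly missing from one. ela2l had 148, 19.9 and 218 TPM (the deposited transcript abundance scaled for gene length) in normal-diet fish 1, 2 and 4, 35.4 and 139.8 TPM in high-fat fish 2 and 4, and 0.412 and 23.3 TPM in CACF fish 2 and 4. ela3l had 93.8, 9.74 and 137.8 TPM on the normal diet, 13.5 and 71.6 TPM on the high-fat diet and 0.466 and 9.75 TPM with CACF. ela2 had 39.5, 3.49 and 52.2 TPM, then 8.43 and 21.7 TPM, then 0.848 and 4.65 TPM in the same order. For all 3 elastases, normal-diet fish 2 was lower than both high-fat libraries and also lower than CACF fish 4, so the normal-diet and CACF libraries overlapped. Both high-fat libraries were above both CACF libraries for each of them.

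Among the carboxypeptidases of type A, cpa5 was the most abundant. cpa5 had 60.7, 4.96 and 42.1 TPM in normal-diet fish 1, 2 and 4, 13.3 and 16.7 TPM on the high-fat diet and 0.737 and 3.21 TPM with CACF. It was the 1 gene of the 7 for which every normal-diet library exceeded every CACF library in TPM, and its high-fat libraries lay closest together. cpa1, annotated as the pancreatic carboxypeptidase A1, had 12.4, 1.17 and 15.1 TPM on the normal diet, 3.58 and 10.8 TPM on the high-fat diet and 0.0947 and 2.63 TPM with CACF. cpa4 was the least abundant on average, with 3.70, 1.75 and 9.62 TPM, then 2.34 and 8.69 TPM, then 0.301 and 4.16 TPM. Its 3 groups overlapped throughout: CACF fish 4 exceeded high-fat fish 2 and normal-diet fish 1 and 2. The type B enzyme gene cpb1 had 21.2, 4.26 and 34.1 TPM on the normal diet, 7.72 and 19.6 TPM on the high-fat diet and 0.498 and 5.15 TPM with CACF, the same ordering of libraries as for ela2.

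**Figure D1:**
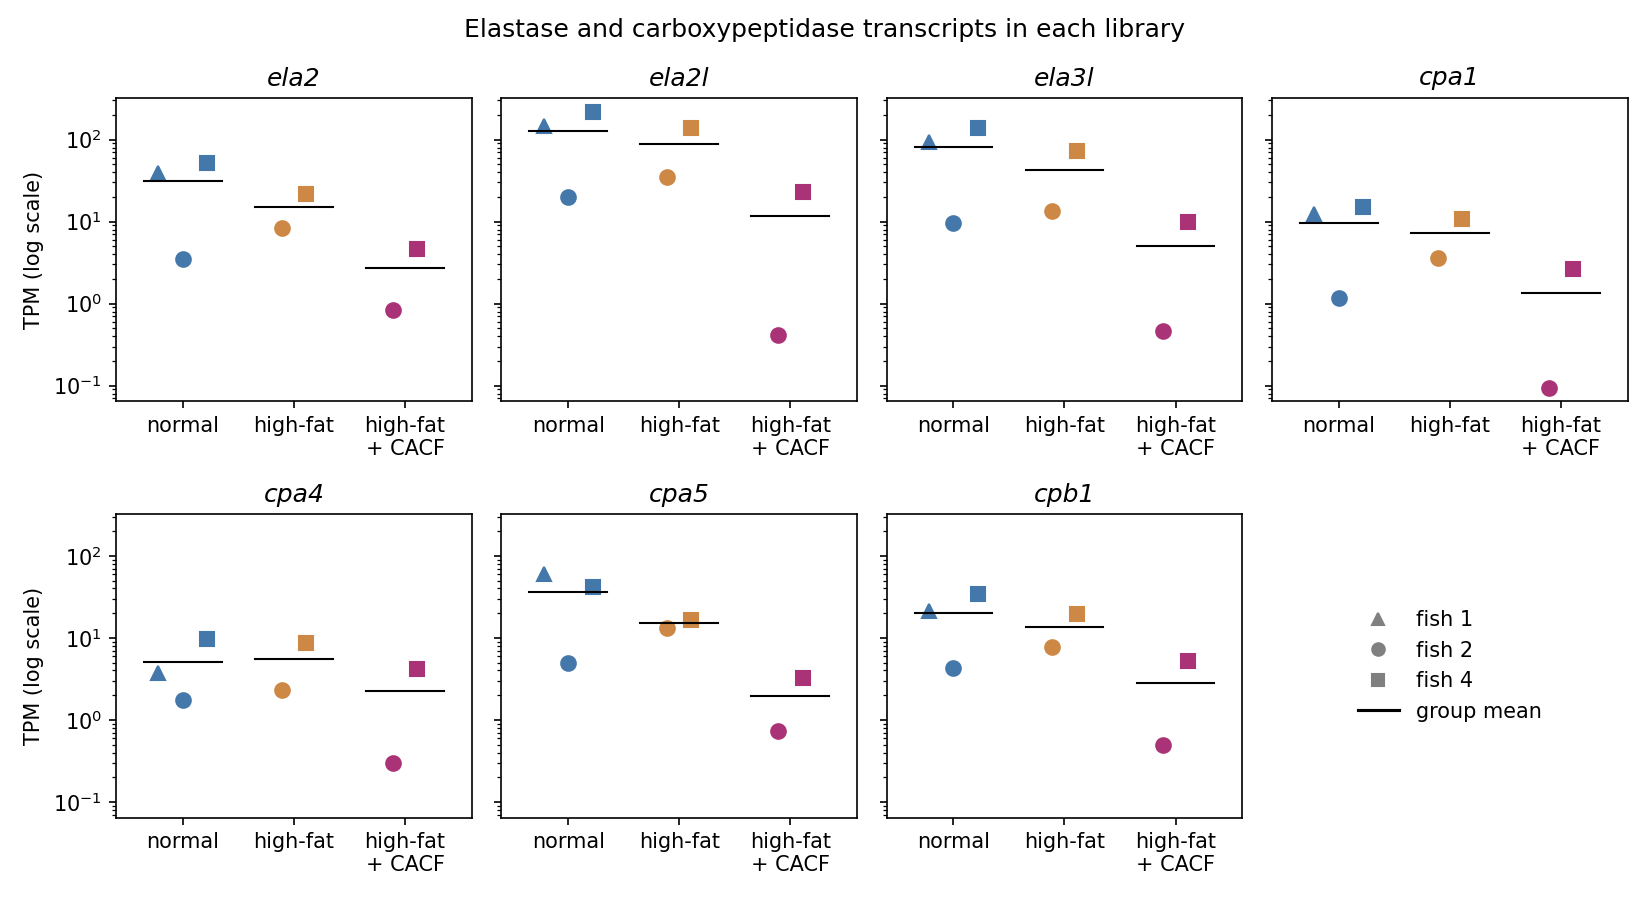
Each panel shows 1 gene, with TPM on a log axis for each library of the 3 groups, the symbol giving the fish number and the black line the group mean. CACF fish 2 is the lowest library in all 7 panels, and normal-diet fish 2 lies below both high-fat libraries in each.

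From lowest to highest TPM, 5 of the 7 genes put the libraries in 1 order, and cpa4 and cpa5 each differed from it in several places. CACF fish 2 was the lowest for 7 of 7 genes and normal-diet fish 4 the highest for 6 of 7, with cpa5 highest in normal-diet fish 1. Fish 4 exceeded fish 2 for all 7 genes within each of the 3 groups, which held for 14.6% of all 18169 genes tested. On the normal diet, fish 4 had 5.50 times (cpa4) to 15.0 times (ela2) the TPM of fish 2. With CACF, the ratio ran from 4.36 times (cpa5) to 56.5 times (ela2l), and on the high-fat diet from 1.25 times (cpa5) to 5.31 times (ela3l). CACF fish 4 stood close to normal-diet fish 2, at 1.17 times its level for ela2l, 2.38 times for cpa4 and 0.648 times for cpa5. From the lowest to the highest library the span was 32.0-fold for cpa4, 61.5-fold for ela2, 68.4-fold for cpb1, 82.4-fold for cpa5, 160-fold for cpa1, 296-fold for ela3l and 530-fold for ela2l.

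Low read counts limit the lowest of these values. CACF fish 2 was not a shallow library, with 18898959 reads over all genes against 12699552 and 15819634 in high-fat fish 2 and 4. In CACF fish 2 the genes rested on 4 reads (cpa1) to 18 reads (cpa5), and on 80 reads in all. The exact Poisson 95% interval was 1.09 to 10.2 reads for cpa1 and 10.7 to 28.4 reads for cpa5. ela2l and ela3l had 10 reads each there, against 3827 and 2641 reads in normal-diet fish 4. These intervals cover counting error only. Summed over the 7 genes, the libraries held 464, 46.0 and 554 reads for every 1000000 on the normal diet, 102 and 314 on the high-fat diet, and 4.23 and 55.3 with CACF.

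The make-up of the group shifted less than its level. ela2l was the most abundant of the 7 and ela3l the next in 6 of 7 libraries, and together with ela2 they held 68.0% to 80.7% of the summed TPM there. CACF fish 2 was the exception, with ela2 first, cpa5 next and an elastase share of 51.4%. Counted in reads, elastases made up 34 of the 80 reads of that library, or 42.5% (exact Clopper-Pearson 95% interval, 31.5% to 54.1%). The other libraries ran from 54.3% (51.5% to 57.0%) in high-fat fish 2 to 70.0% (68.7% to 71.3%) in high-fat fish 4, with CACF fish 4 at 57.5% (54.6% to 60.4%). The interval of CACF fish 2 overlapped only that of high-fat fish 2.

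Within every group the summed elastase share, and the shares of ela3l, cpa5 and cpb1, kept 1 side between fish 4 and fish 2, while those of ela2, ela2l, cpa1 and cpa4 did not. The elastase share of TPM was higher in fish 4 than in fish 2, at 80.2% against 73.2% on the normal diet, 80.7% against 68.0% on the high-fat diet and 71.3% against 51.4% with CACF. ela3l rested on the same side in each group, with 27.1% against 21.5%, 24.8% against 16.0% and 18.5% against 13.9%. cpa5 stood the other way, with 8.28% in fish 4 against 10.96% in fish 2 on the normal diet, 5.77% against 15.8% on the high-fat diet and 6.08% against 21.97% with CACF. cpa4 held its largest shares in the CACF libraries, 8.96% and 7.88%, and 0.976% to 3.87% elsewhere. These shares are a description, and no test was made of them.

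**Figure D2:**
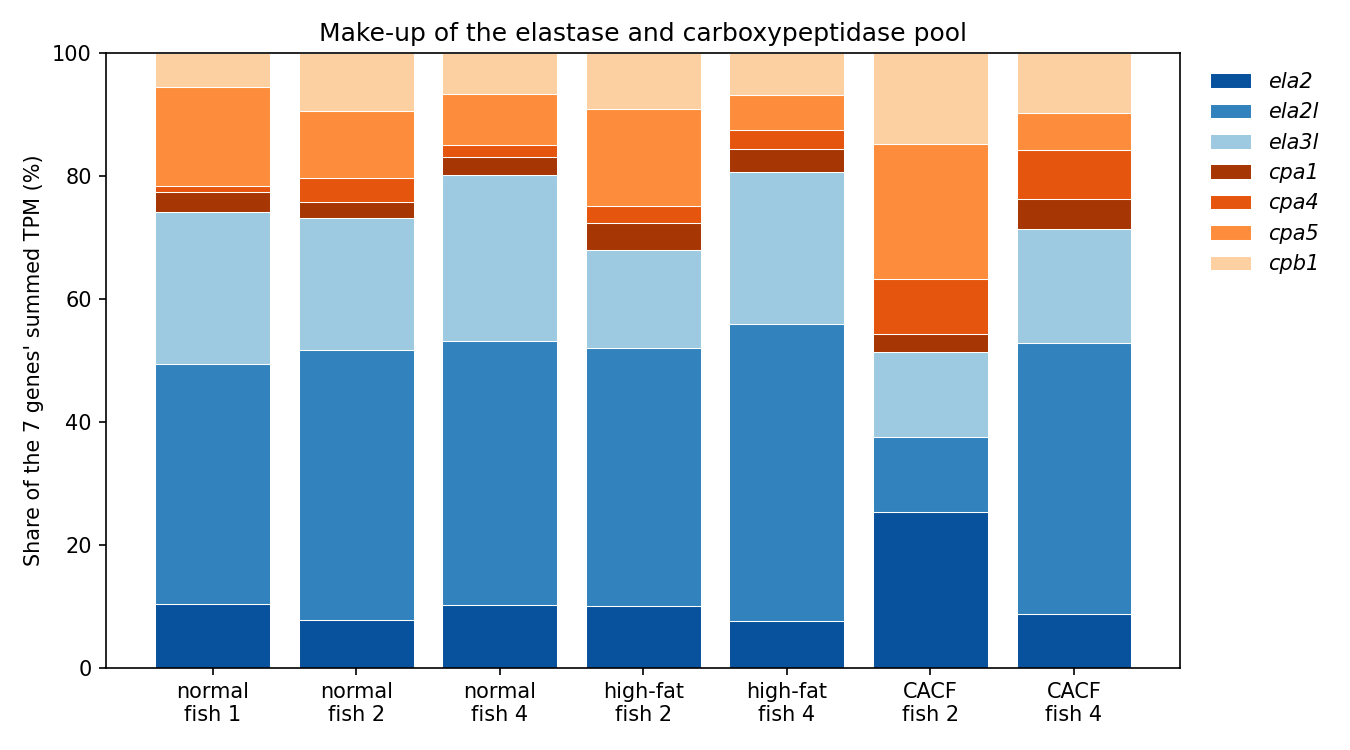
Stacked bars give each gene's percentage of the 7 genes' summed TPM in each library, with elastases in blue and carboxypeptidases in orange. Elastases hold 68.0% to 80.7% in 6 libraries and 51.4% in CACF fish 2, and ela2l is the largest part in the same 6.

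None of the 7 genes passed between the high-fat and the normal diet, the comparison that concerns feeding without CACF. Fold changes were computed on log2(TPM + 1) in 1 limma fit of all 7 libraries, with Benjamini-Hochberg adjustment over 18169 genes and a threshold of 0.05. The comparison shares its normal-diet libraries with the contrast that led to the choice of these genes, so its directions are not independent of that choice. Of the 7, 6 had a log2 fold change below 0 on the high-fat diet, where 52.8% of all genes did, with a median log2 fold change of -0.30 where that of all genes tested was -0.03. ela3l had 42.6 ± 41.1 TPM (SD, n = 2) against 80.4 ± 65.1 TPM (n = 3) and a log2 fold change of -0.68 ± 1.04 (SE; 95% interval -2.93 to 1.57). cpa5 had 15.0 ± 2.39 against 35.9 ± 28.4 TPM (-0.66 ± 0.78; -2.34 to 1.02), and cpa4 had 5.52 ± 4.49 against 5.03 ± 4.10 TPM (0.14 ± 0.67; -1.30 to 1.58). The intervals leave room for several-fold differences in either direction. The adjusted p was 1.0 in limma for all 7, and 0 of 7 had an unadjusted p under 0.05, against 3.31% of all genes in either direction and 2.65% lower. edgeR and DESeq2 on the recovered reads likewise called 0 of the 7, and they and limma called 0% of all genes. The direction rested on single libraries: the median was 0.31 without normal-diet fish 4, 0.48 without high-fat fish 2 and -0.01 without normal-diet fish 1, but -1.34 without normal-diet fish 2 and -0.87 without high-fat fish 4. In the authors' deposited table of this comparison, cpa5 had a log2 fold change of -1.52 and ela2 of -1.15. The adjusted p there was 1.0 for ela2, cpa4, cpa5 and cpb1, and none was listed for the other 3, where 0.281% of genes with an adjusted p were under 0.05. The authors' deposited list of genes at least 4-fold lower holds 0 of the 7 and 7.37% of all genes.

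CACF exposure within the high-fat diet was compared next, and all 7 genes had log2 fold changes below 0, where 37.1% of all genes did. The comparison shares its CACF libraries with the contrast that led to the choice of these genes, so it is not independent of it. The median log2 fold change was -2.18, where that of all genes tested was 0.16. ela2l showed the widest gap, with 11.8 ± 16.2 TPM (n = 2) against 87.6 ± 73.8 TPM (n = 2), a log2 fold change of -3.61 ± 1.21 (SE; limma adjusted p = 0.185). ela3l had 5.11 ± 6.57 against 42.6 ± 41.1 TPM (-3.03 ± 1.14; limma adjusted p = 0.231). cpa5 had 1.97 ± 1.75 against 15.0 ± 2.39 TPM (-2.56 ± 0.85; limma adjusted p = 0.183). ela2, cpb1 and cpa1 had log2 fold changes of -2.18, -2.14 and -1.88 (limma adjusted p = 0.321, 0.247 and 0.348). cpa4 had the smallest difference, with 2.23 ± 2.73 against 5.52 ± 4.49 TPM (-1.13 ± 0.73; limma adjusted p = 0.585).

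None of the 7 thus passed in limma, where 1 gene of 18169 did (0.0055%). In limma, 6 of 7 had an unadjusted p under 0.05 and were lower, against 2.41% of all genes. edgeR and DESeq2 on the recovered reads also called 0 of the 7 (0% and 4.81% of all genes), with 1 and 2 of them at an unadjusted p under 0.05. On the deposited normalized counts limma again called 0 of the 7 (0.0143% of all genes). With the fish number as a block it called 6 of the 7, all but cpa4 (5.17% of all genes), although the labels do not state that the number pairs libraries. The count of 6 at an unadjusted p under 0.05 was 0 with no filter on low values or with robust moderation and 1 with median-of-ratios scaling. The libraries did not overlap for 6 of 7 genes, cpa4 being the exception, where 13.4% of all genes had both CACF libraries below both high-fat libraries. CACF fish 2 weighed heavily: without it the median was -1.37 and 0 of 7 genes had an unadjusted p under 0.05 in limma, and without CACF fish 4 the median was -3.16. Without high-fat fish 4 it was -1.54, with 2 of 7 at an unadjusted p under 0.05.

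CACF against the normal diet, the contrast that led to the choice of the genes, is a description. The counts of calls given for it follow in part from that choice, so nothing is read from them. All 7 genes had log2 fold changes below 0, where 36.2% of all genes did. ela2l had 11.8 ± 16.2 TPM (n = 2) against 129 ± 101 TPM (n = 3), 15.0-fold lower after adding 1 to each TPM, with a log2 fold change of -3.91 ± 1.11 (SE). ela3l was 13.1-fold lower (-3.71 ± 1.04) and cpa5 9.29-fold lower (-3.22 ± 0.78), with 1.97 ± 1.75 against 35.9 ± 28.4 TPM. ela2, cpb1 and cpa1 were 6.59-fold, 5.27-fold and 3.90-fold lower, and cpa4 1.99-fold lower with 2.23 ± 2.73 against 5.03 ± 4.10 TPM. The median of the 7 was -2.72, where that of all genes tested was 0.19. In limma 0 of the 7 passed, where 14 genes did (0.0771%), and 6 of the 7 were lower at an unadjusted p under 0.05 (4.33%). On the deposited normalized counts limma also called 0 of the 7 (0.148%), and a block for the fish number gave 4 of the 7 (0.853%). DESeq2 on the recovered reads called cpa5 alone of the 7 (3.65% of genes were called), and edgeR called 0 of the 7 (0.0187%). In TPM, the libraries of the compared groups did not overlap for 1 of 7 genes, cpa5, where 8.72% of all genes were lower without overlap. The median was -1.86 without CACF fish 2 and -3.84 without normal-diet fish 2, and cpa4 then had log2 fold changes of 0.00 and -1.45.

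In the authors' deposited table of the same contrast, cpa5 had a log2 fold change of -4.60 (their adjusted p = 0.0140) and ela2 of -3.87 (their adjusted p = 0.0349). cpb1 (-3.22, their adjusted p = 0.285) and cpa4 (-1.36, their adjusted p = 0.819) did not pass in the authors' deposited table. For ela2l, ela3l and cpa1 the authors' deposited table gives log2 fold changes of -3.79, -4.39 and -3.22 and no p-value. Of genes with an adjusted p in it, 1.34% were under 0.05. The authors' deposited list of genes at least 4-fold lower holds 6 of the 7, all but cpa4, and 6.63% of all genes.

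**Figure D3:**
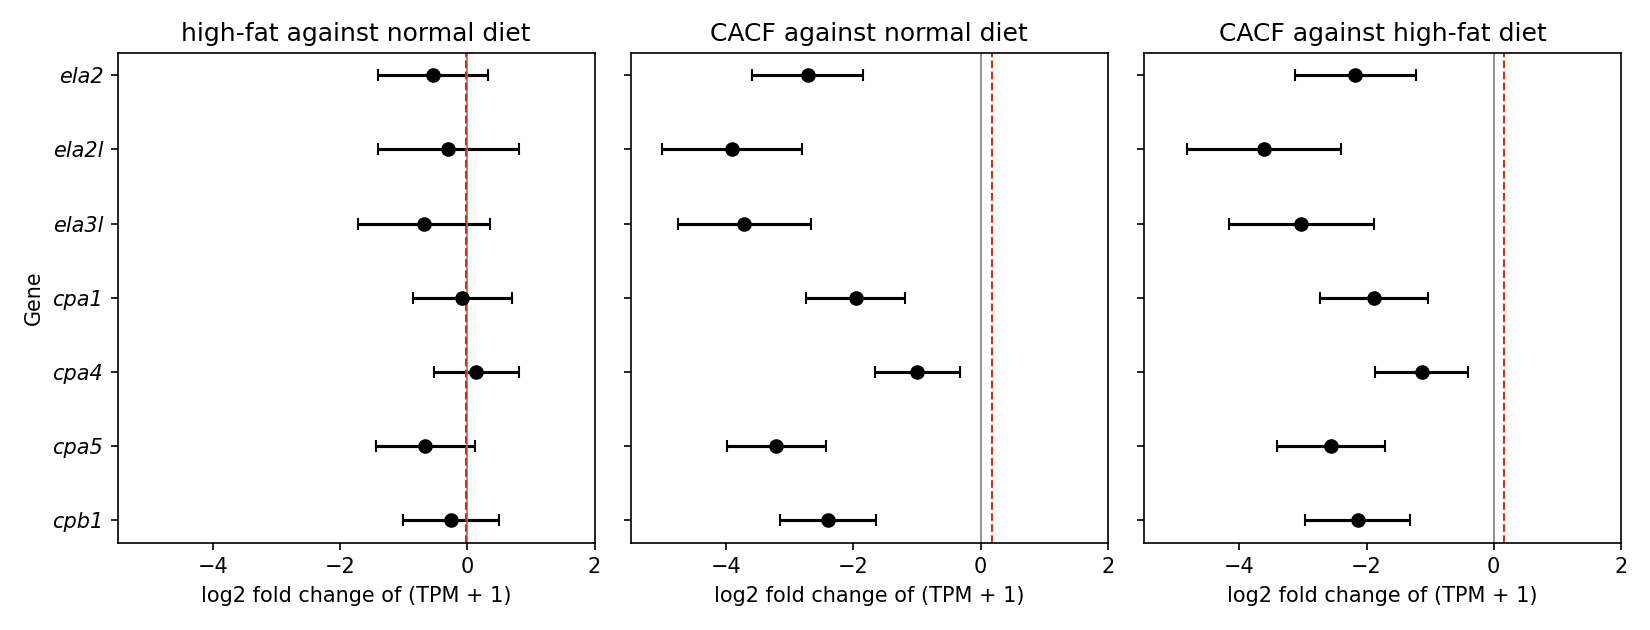
Points give each gene's log2 fold change of TPM plus 1 in the 3 comparisons, bars the standard error from limma, the grey line 0 and the red dashed line the median of all 18169 genes tested. In both panels with CACF all 7 points lie left of 0, with cpa4 nearest to it, and in the panel of high-fat against normal diet all 7 bars cross 0.

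Other digestive enzyme genes of acinar cells had a similar pattern across libraries. Likeness was measured as the root mean square difference, over the 7 libraries, between a gene's centred log2(TPM + 1) and the mean of the 7 genes. Among genes with a symbol other than a clone or locus name, the 10 closest were sycn.2 (0.26), which encodes a zymogen granule protein, the amylase gene amy2a (0.36), the chymotrypsin-like gene ctrl (0.36), apoda.2 (0.37), the astacin protease genes c6ast4 (0.48) and c6ast3 (0.51), the trypsin gene prss59.1 (0.53), cela1.6 (0.54), the chymotrypsinogen gene ctrb1 (0.59) and cel.1 (0.61), a bile salt-activated lipase gene. Of the 7 genes themselves, cpb1 (0.20) and ela2 (0.26) lay closest to their mean, and cpa4 (0.86) and ela2l (0.77) farthest. apoda.2, which encodes a member of the apolipoprotein D family, had 52.4, 3.42 and 36.0 TPM on the normal diet, 10.5 and 21.5 TPM on the high-fat diet and 0.145 and 4.29 TPM with CACF. The list comes from the same 7 libraries as the 7 genes, and only the likeness of their values is described.

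Other pancreatic genes were taken from lists drawn up with earlier results known. Of 8 trypsin and chymotrypsin genes found, 5 had enough TPM to be tested, and their median log2 fold changes were -0.70 for the high-fat diet, -2.91 for CACF against the high-fat diet and -3.79 for CACF against the normal diet. None passed in limma in any of the 3. In limma, 0, 5 and 5 were lower at an unadjusted p under 0.05, against 2.65%, 2.41% and 4.33% of all genes. Exocrine pancreas genes were already known to be lower for CACF against the normal diet, so nothing is read from these counts. The most abundant, the trypsin gene prss1, had 381, 43.1 and 427 TPM, then 77.4 and 201 TPM, then 2.76 and 28.3 TPM. prss59.2, another trypsin gene, had 235, 20.5 and 306 TPM, then 37.3 and 108 TPM, then 1.70 and 19.0 TPM, so normal-diet fish 2 was below the high-fat libraries here as well. For 4 lipase, amylase and phospholipase genes the medians were -0.29, -1.46 and -1.89, and none passed the threshold. In limma, 0, 2 and 3 of them were lower at an unadjusted p under 0.05, beside the same shares of all genes and with the same limit. For 5 tested genes of other acinar secretory products they were 0.02, -1.30 and -0.92, again with none past the threshold. spink4, which encodes a secreted serine protease inhibitor of the Kazal type, led that list with 44.5, 18.2 and 43.7 TPM, then 14.1 and 44.2 TPM, then 0.643 and 3.85 TPM.

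Of the acinar transcription factor genes, only ptf1a could be tested, and it was not lowest in CACF fish 2. ptf1a, which drives acinar enzyme genes and is also active in the developing hindbrain and retina, had 3.10, 3.77 and 3.67 TPM on the normal diet, 7.35 and 5.47 TPM on the high-fat diet and 4.74 and 5.199 TPM with CACF. In CACF fish 2 it was thus higher than in any normal-diet library, while the 7 enzyme genes summed to 3.36 TPM there. It was the 1 of 6 listed factors with enough TPM to be tested (log2 fold change -0.30 ± 0.39 for CACF against high-fat diet, limma adjusted p = 0.853). Since whole larvae were used, how much of its signal came from the pancreas was not tested. Among the others, rbpjl, nr5a2, bhlha15 and gata6 did not reach the minimum of 1 TPM in 2 libraries.

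Enzymes of the same families that are made in other tissues and other elastase genes were also listed. Of 7 other elastase-named genes found, 2 were tested, and cela1.6 was the abundant one, with 196, 20.1 and 241 TPM, then 44.6 and 119 TPM, then 1.599 and 20.4 TPM. It exceeded ela2l in every normal-diet library, high-fat fish 2 and CACF fish 2, but not in high-fat fish 4 or CACF fish 4. The elastase share given above covers ela2, ela2l and ela3l only and leaves cela1.6 out. Its log2 fold changes were -0.44 for the high-fat diet, -3.31 for CACF against the high-fat diet and -3.75 for CACF against the normal diet. Those of cela1.5 were -0.14, -0.31 and -0.45, and neither gene passed in limma. Of 13 other metallocarboxypeptidase genes found, 9 were tested, with medians of -0.08 for the high-fat diet, -0.11 for CACF against the high-fat diet and -0.09 for CACF against the normal diet, and none passed in limma. cpe, which encodes the prohormone-processing carboxypeptidase E of endocrine and nerve cells, had 28.3, 64.1 and 31.9 TPM on the normal diet, 23.8 and 19.1 TPM on the high-fat diet and 91.8 and 76.4 TPM with CACF. Its log2 fold change for CACF against the high-fat diet was 1.92 ± 0.47, opposite in sign to the 7 genes, and did not pass (limma adjusted p = 0.102). cpn1, which encodes the catalytic chain of plasma carboxypeptidase N, is annotated at 2 loci, and these had 6.04 to 12.2 TPM in all libraries.

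Markers of neighbouring organs were summed in the same libraries. The islet endocrine list of 12 genes had 105, 209 and 196 TPM on the normal diet, 194 and 188 TPM on the high-fat diet and 193 and 235 TPM with CACF. Its lowest library was normal-diet fish 1, where the 7 enzyme genes were high. The sum was carried by neurod1, a transcription factor gene of endocrine and nerve cells, with 55.6 to 166 TPM, and by the somatostatin gene sst1.1, with 18.7 to 41.8 TPM. The insulin gene ins, of low level, differed from the sum, with 3.07, 0.493 and 7.15 TPM, then 1.19 and 1.46 TPM, then 0 and 0.941 TPM. The glucagon gene gcga had 8.12, 0.379 and 2.11 TPM, then 0.874 and 1.85 TPM, then 0.0564 and 0.144 TPM. Both ins and gcga were thus lowest in CACF fish 2, as were the 7 enzyme genes. Not all hormone genes of low level followed them. The glucagon gene gcgb had 1.21, 1.70 and 4.44 TPM, then 6.52 and 2.75 TPM, then 4.34 and 2.18 TPM. The somatostatin gene sst1.2 was highest in CACF fish 2, at 4.99 TPM. Another somatostatin gene, sst2, had 0, 1e-06 and 1.35 TPM, then 0.214 and 1.21 TPM, then 0 and 0.481 TPM. For CACF against the normal diet, 3 of 11 tested islet genes had log2 fold changes below 0 and 8 above. The choice to name these hormone genes was made with their values in view. The enterocyte list of 17 genes had 1205, 53.9 and 152 TPM, then 211 and 303 TPM, then 109 and 79.7 TPM. All 15 tested genes had log2 fold changes of TPM plus 1 below 0 for CACF against the high-fat diet, where 37.1% of all genes did. Their median was -1.26, where that of all genes was 0.16. In limma 3 of the 15 were lower at an unadjusted p under 0.05, against 2.41% of all genes. In that comparison 9 of 13 tested hepatocyte genes and 5 of 11 tested islet genes were below 0. For CACF against the normal diet, 14 of 15 tested enterocyte genes and 8 of 13 tested hepatocyte genes were below 0, where 36.2% of all genes were. The enterocyte median there was -1.10, where that of all genes was 0.19. In limma 6 of those 15 were lower at an unadjusted p under 0.05, against 4.33% of all genes. The gap in the enterocyte sum was largest against normal-diet fish 1, at 1205 TPM. Both CACF sums of that list lay between those of normal-diet fish 2 and 4. The enterocyte counts were not made without normal-diet fish 1. The hepatocyte list of 14 genes had 1250, 352 and 1282 TPM, then 1009 and 1417 TPM, then 710.3 and 951 TPM. Normal-diet fish 2 was thus the lowest library of the enterocyte and hepatocyte lists, and also of the normal-diet libraries for the 7 genes. The part of these organs' share of the RNA in the values of the 7 genes was not tested.

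**Figure D4:**
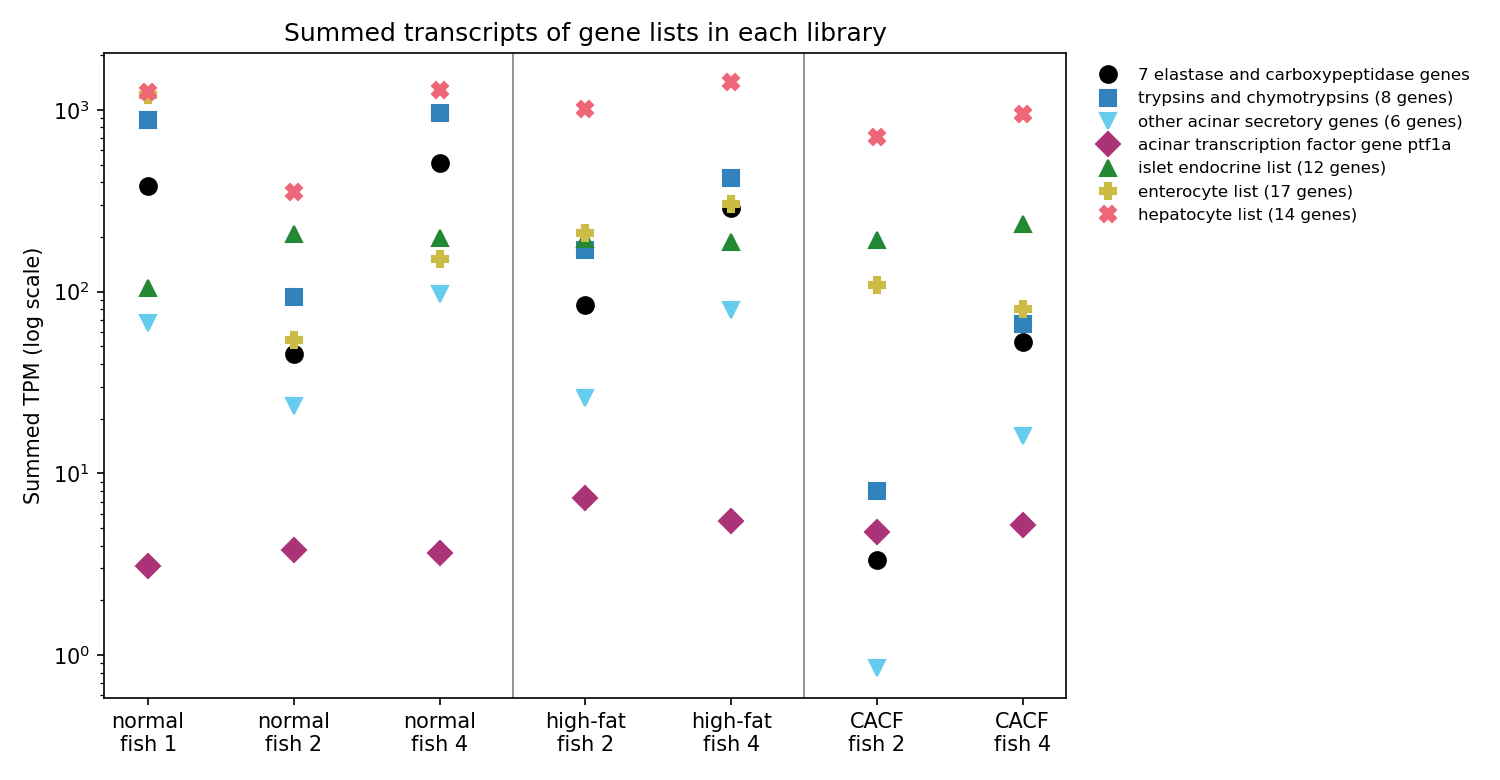
Points give, on a log axis, the summed TPM of the 7 genes and of the lists named in the legend in each of the 7 libraries, with grey lines between the diet groups. The 7 genes and the trypsin and chymotrypsin list span more than the islet list and ptf1a, which stay within 105 to 235 TPM and 3.10 to 7.35 TPM. Within the islet sum, ins, sst2 and gcga are at 0, 0 and 0.0564 TPM in CACF fish 2, and gcgb and sst1.2 at 4.34 and 4.99 TPM.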

How the data were processed

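The 7 libraries of whole-larva mRNA are strand-specific, per the labels. The submitters' processing notes name HISAT2, Trimmomatic, FastQC and DESeq2 and give no versions. File names of the deposited data give GRCz11 as build. The authors deposited a TPM, an FPKM and a coverage value (signal) per gene and library. In each file the TPM of assembled loci summed to 1000000 and the reference genes added 739551 to 884988 on the same scale. Only reference genes were used, and a gene listed at several places had its values summed. Per the file headers, 2 further deposited tables give normalized counts (signal), log2 fold changes, p-values and a Wald score for 29567 genes, and deposited lists hold genes past 4-fold. Dividing each library's normalized counts by 1 step per library gave whole reads for 100% of values (tolerance 0.001).

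The test was limma 3.58.1 (R 4.3.3) with a variance trend and 1 mean for each group, on log2(TPM + 1) of the 18169 genes that reached 1 TPM in 2 or more libraries. This scale understates changes of low genes. TPM is no count, so edgeR 4.0.16 and DESeq2 1.42.0 were run on the recovered reads as alternatives only. The fit was tested on simulated data with the same dispersion for every gene and no library differences beyond depth and the set fold changes. It therefore does not show how the fit behaves at the wide spread of the 7 genes. The other alternatives were pseudocounts of 0.1 and 5, no filter, a filter of 5 TPM, FPKM, the normalized counts, 2 scalings, robust moderation, a block for the fish number, a fit of only the 2 groups compared, and each library left out. The text names all 7 genes, up to 4 genes per list by mean TPM, and the 10 closest genes. Outside this rule it names the lower-ranked islet genes ins, gcga, gcgb, sst1.2 and sst2, picked with their values in view, and some untested acinar factor genes. The 7 genes and the lists were chosen with earlier results of these data known.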

Additional observations from a re-analysis of the deposited data

How the results depend on the processing

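Across the alternatives, the median of the 7 genes stayed negative in both comparisons with CACF (-1.33 to -3.31 against the high-fat diet and -1.86 to -3.84 against the normal diet), while that of high-fat against normal diet ran from -1.34 to 0.48. Scaling moved the median of all genes for CACF against normal diet from 0.19 to 0.01 (median of ratios), where that of the 7 genes was -2.91. Since the 7 were chosen on CACF against normal diet, calls in that contrast follow in part from the choice and support nothing. Their number was 3 with the compared groups only, 1 with DESeq2 and 0 to 3 with each library left out (3 without high-fat fish 2, 2 without high-fat fish 4 or CACF fish 4, 1 without normal-diet fish 2), where it was 0 in limma, and the count over all genes ran from 1 to 671. For CACF against high-fat diet, the number of the 7 with an unadjusted p under 0.05 ran from 0 to 7, and the count over all genes called from 0 to 960. The causes were not tested.

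The fish number as a block, a pairing that the labels do not state, called 4 of the 7 for CACF against normal diet, with the same limit, and 6 of the 7 against high-fat diet (all but cpa4). Deviations of same-numbered libraries correlated at 0.10 to 0.37 over 6 pairs of libraries, but any 2 groups share only 2 numbers. These pairs are not independent. In a group of 2 libraries the deviations mirror each other, so high-fat and CACF gave 0.19 for both fish numbers by construction. The block sets normal-diet fish 1 aside.

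For high-fat against normal diet, which passed nowhere, signs turned with the block (ela2l 0.082, cpa1 0.31), with a pseudocount of 0.1 (cpa1 0.023), without normal-diet fish 1 (ela2l 0.08, cpa1 0.31), without normal-diet fish 4 (ela2 0.12, ela2l 0.36, ela3l 0.02, cpa1 0.45, cpb1 0.31), without high-fat fish 2 (ela2 0.09, ela2l 0.68, ela3l 0.48, cpa1 0.60, cpb1 0.36), and for cpa4 with high-fat fish 4 (-0.63) or normal-diet fish 2 (-0.31) left out. With each library left out, log2 fold changes ran from -1.66 to 0.12 for ela2, -1.34 to 0.68 for ela2l, -1.85 to 0.48 for ela3l, -1.0015 to 0.60 for cpa1, -0.63 to 0.91 for cpa4, -1.70 (without normal-diet fish 2) to -0.01 (without normal-diet fish 1) for cpa5 and -1.06 to 0.36 for cpb1. For CACF against normal diet, cpa4 ran from -1.99 (without CACF fish 4) to 0.000232 (without CACF fish 2). Low read counts of these genes limit the values in CACF fish 2, where each had at most 18 reads. That library was not shallow.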
